A study of Mus musculus with 9 samples.

Results

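A set of 10 genes that respond to the ERK mitogen-activated protein kinase pathway was followed across the mouse embryonic stem (ES) cell line J1 and a pair of stable stem cell lines that carry OCT4 or EWS-OCT4. The members were chosen by gene symbol: the immediate early transcription factors Egr1 and Fos, the ERK phosphatases Dusp4 and Dusp6, the Sprouty and Spred inhibitors Spry2, Spry4 and Spred1, and the PEA3 family transcription factors Etv1, Etv4 and Etv5. All 10 were present among the 40213 gene symbols counted, and all 10 were among the 16562 genes with enough counts to be tested.

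In the ERK pathway, a growth factor such as FGF4 binds a receptor tyrosine kinase, and the signal passes through RAS, RAF and MEK to ERK, which phosphorylates transcription factors. Immediate early genes are switched on within minutes without new protein synthesis, whereas the phosphatases, Sprouty and Spred proteins are induced by the pathway and dampen it, so their transcripts are often read as a record of its activity. In mouse ES cells, autocrine FGF4 acting through ERK moves cells towards exit from the naive pluripotent state, and Etv4 and Etv5 are among the transcription factors induced by it.

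J1, an ES cell line in wide use, served as the control group (3 libraries). The experimental groups were stable lines that the labels name Niwa oct4 (here the OCT4 line, 3 libraries) and Niwa ews oct4 (the EWS-OCT4 line, 3 libraries). EWS-OCT4 joins the RNA-binding protein EWS to OCT4, the pluripotency transcription factor encoded by Pou5f1. All groups were grown in ES cell medium with LIF. The stable lines were given 1 µg/ml doxycycline to lower their endogenous OCT4, and whether J1 was also given it is not stated in the labels. Each group carries 1 cell line name and the labels do not name J1 as the parent of the stable lines, so differences between clones or host lines cannot be told apart from the construct. The sample titles put a number after the words stable cell line. Whether that number marks a separate line or a replicate of the same line is not stated in the titles. Each stable group is called a line here and its libraries replicates. Separate cultures are not mentioned for the replicates, and the p-values therefore reflect library-to-library spread that may be purely technical.

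Library totals ran from 21149358 to 24786305 counts. Pou5f1 stood at 569 ± 61.8 CPM in J1 (counts per 1000000 counts, TMM-scaled; mean ± SD, n = 3), at 165 ± 2.61 in the OCT4 line and at 26.8 ± 2.12 in the EWS-OCT4 line, and the deposited symbol does not separate endogenous from introduced OCT4. A single predicted gene, Gm26917, took between 9471 and 43630 CPM as group means, and leaving it and the mitochondrial genes out of the totals changed no member's call. All 8 ES cell markers had counts in every group, with a summed level between 4475 and 4905 CPM in J1, 2954 and 3025 with OCT4, and 3243 and 3340.3 with EWS-OCT4. The 8 trophectoderm markers summed to between 133 and 155 CPM in J1, 466 and 499 with OCT4, and 235 and 249.9 with EWS-OCT4. The 8 primitive endoderm markers summed to between 297 and 329, 456 and 459, and 480.2 and 495 CPM in the same order, most of it Lama1 and Sparc. Of the 7 tested, 5 were lower and 2, these genes, higher in the EWS-OCT4 line than in J1, and 4 were lower and 1 higher than in the OCT4 line. The 5 mesendoderm markers summed to at most 16.8 CPM and the 5 neural markers to at most 103. Of the 10 fibroblast markers Lum was at 0 in J1 and the OCT4 line and Dcn at 0 in J1 and the EWS-OCT4 line, and most of the summed level of 1556 to 1959 CPM was Fn1. The part of these cell type markers in the results on ERK response genes was not tested. In bulk RNA, fewer cells expressing a gene and less RNA per cell cannot be told apart.

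The promoter windows of Fos, Etv1, Dusp6 and Spry2 are shown because Fos and Etv1 differed in pattern from the feedback inhibitors Dusp6 and Spry2. Each window runs from 250 bases before to 50 bases after an annotated transcription start, 5′ to 3′ on the strand of the gene, and capitals mark a match to the CIC octamer (TGAATGAA, TGAATGGA, TCAATGAA or TCAATGGA, on either strand). CIC is a repressor that ERK signalling relieves from its targets. Sequences and coordinates are RefSeq's on GRCm38.p6, an older build than the GRCm39 named for the counts.
Fos, chr12:85473640-85473939, plus strand: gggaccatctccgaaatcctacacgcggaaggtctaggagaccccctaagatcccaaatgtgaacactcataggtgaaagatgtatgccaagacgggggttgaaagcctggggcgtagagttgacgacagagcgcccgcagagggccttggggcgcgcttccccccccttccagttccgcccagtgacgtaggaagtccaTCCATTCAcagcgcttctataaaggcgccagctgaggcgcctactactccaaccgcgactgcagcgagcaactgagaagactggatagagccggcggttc
Etv1, chr12:38779832-38780131, plus strand: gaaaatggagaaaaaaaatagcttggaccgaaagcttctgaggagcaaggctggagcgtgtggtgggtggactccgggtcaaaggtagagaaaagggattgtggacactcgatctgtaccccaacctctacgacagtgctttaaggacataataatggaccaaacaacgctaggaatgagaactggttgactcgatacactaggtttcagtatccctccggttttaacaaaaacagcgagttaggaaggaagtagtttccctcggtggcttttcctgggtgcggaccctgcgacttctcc
Dusp6, chr10:99262981-99263280, plus strand: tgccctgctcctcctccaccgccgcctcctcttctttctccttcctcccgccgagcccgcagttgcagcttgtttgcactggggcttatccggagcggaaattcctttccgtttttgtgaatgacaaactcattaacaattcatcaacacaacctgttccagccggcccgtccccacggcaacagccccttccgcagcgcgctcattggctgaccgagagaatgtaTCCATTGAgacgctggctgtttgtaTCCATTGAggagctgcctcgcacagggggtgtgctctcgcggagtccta
Spry2, chr14:105896770-105897069, minus strand: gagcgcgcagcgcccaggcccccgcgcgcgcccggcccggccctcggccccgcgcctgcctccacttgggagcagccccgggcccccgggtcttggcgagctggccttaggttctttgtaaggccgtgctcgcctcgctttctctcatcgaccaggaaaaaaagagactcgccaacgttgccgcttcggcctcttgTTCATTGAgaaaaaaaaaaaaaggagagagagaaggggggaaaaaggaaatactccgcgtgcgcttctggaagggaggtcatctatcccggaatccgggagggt

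The table of promoters held 6 of the 10 members (Fos, Dusp6, Spry2, Spred1, Etv1 and Etv5), with 8 windows. The octamer was found 2 times in the Dusp6 window, starting at positions -24 and 2 from the transcription start, and 1 time each in the windows of Fos (position -50) and Spry2 (position -54), all on the strand opposite to the gene, so that the printed capitals are its reverse complement. Positions count the start itself as 1 and the base before it as -1. Of 32851 promoter windows of the same length in the mouse table, 3.84% held it. No window of Etv1, Etv5 or Spred1 had these letters. The same windows were searched on both strands for the AP-1 word TGANTCA (held by 7.81% of all windows), the cAMP response element TGACGTCA (1.79%), an ETS word CCGGAAG (8.86%), the OCT4 octamer ATGCAAAT (1.74%), an EGR1 word GCGTGGGCG (0.612%) and the CArG box of serum response factor (1.63%). None of the 8 windows had an exact match to these words. Variant sites and sites outside the windows were not searched, so a gene without a match may still have such a site. A match is a description of letters and not evidence of binding.

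The OCT4 line had the lowest level of 8 of the 10 members, all but Fos and Etv1. Against J1 it had 8 members lower and 2 higher (adjusted p under 0.05, edgeR quasi-likelihood test with Benjamini-Hochberg adjustment over all tested genes), where 32.7% of all genes tested were lower, 34.3% higher and 67.0% called in either direction. The median log2 fold change of the members was -0.58, beside 0.01 over all tested genes. The same 8 and 2 members had libraries that did not overlap between the groups, as did 33.3% (lower) and 35.1% (higher) of all genes. A change of at least 2-fold was called lower for 2 members (Egr1 and Spry4) and higher for 2 (Fos and Etv1), beside 11.5% and 15% of all genes.

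With EWS-OCT4 in place of OCT4, 9 members were higher than in the OCT4 line and 1, Fos, was lower, where 31.9% of all genes were higher, 34.6% lower and 66.5% called in either direction. The medians were 1.06 over the members and -0.04 over all genes. None of these 10 genes had overlapping libraries, as was so for 35.3% (higher) and 37.6% (lower) of all genes. A rise of at least 2-fold was called for 5 members and a fall for 1, beside 8.54% and 15.8% of all genes. Against J1, the EWS-OCT4 line had 5 members higher, 3 lower and 2 not called, where 30.3% of all genes were higher, 31.6% lower and 61.9% called in either direction, with medians of 0.31 and 0.00262. The libraries of the 5 and 3 called members did not overlap, beside 32.6% (higher) and 33.1% (lower) of all genes. A rise of at least 2-fold was called for 2 members (Dusp6 and Etv1) and a fall for 0, beside 8.10% and 12.5% of all genes. With most tested genes called, a call alone sets no member apart. Each pair of comparisons shares a group of libraries, so they are not independent of each other.

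**Figure D1:**
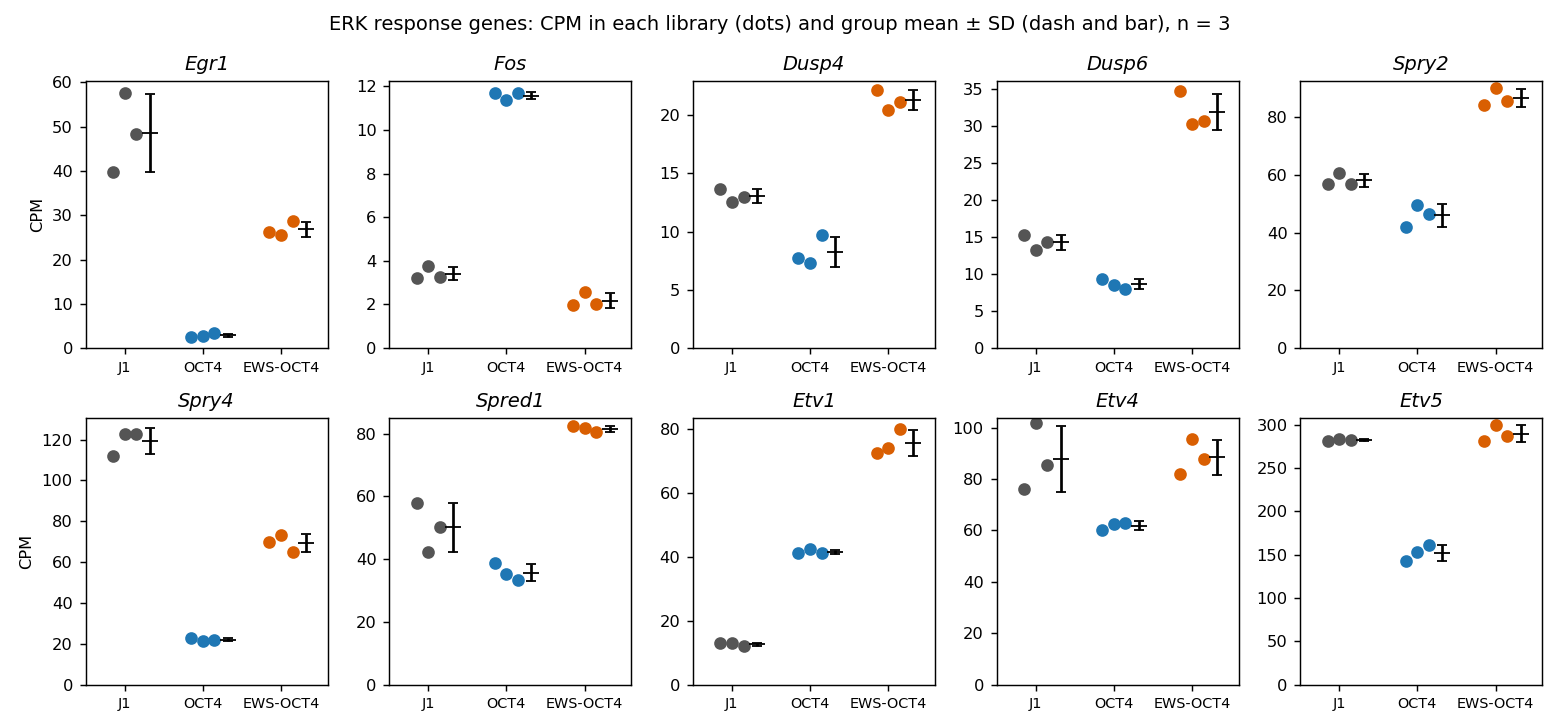
CPM (vertical axis, from 0) of each of the 10 members in the 9 libraries, by group; dots are libraries, and the dash and bar beside them are the group mean and SD (n = 3). Fos is highest in the OCT4 line, Etv1 is lowest in J1, and the other 8 genes are lowest in the OCT4 line.

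Egr1 and Fos, both immediate early genes, went opposite ways in the OCT4 line. Egr1, a zinc finger transcription factor, had 39.8, 57.6 and 48.4 CPM in J1 replicates 1 to 3. It had 2.45, 2.80 and 3.32 CPM in the OCT4 line, from 53, 62 and 79 counts. The EWS-OCT4 libraries had 26.2, 25.6 and 28.6 CPM. The groups did not overlap, with J1 highest, the EWS-OCT4 line next and the OCT4 line far below both. Egr1 was 16.9-fold lower in the OCT4 line than in J1 (log2 fold change -4.08, SE 0.147, adjusted p = 3.89e-13 by the edgeR quasi-likelihood test), and only 55 of the 16562 tested genes, 0.332%, fell further. The EWS-OCT4 line was 1.81-fold below J1 (log2 fold change -0.86, SE 0.113, edgeR adjusted p = 5.57e-06).

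Fos, the AP-1 subunit that pairs with JUN proteins, was the member with the fewest counts over the 9 libraries, with between 41 and 278 counts per library. It had 3.21, 3.75 and 3.24 CPM in J1 and 11.7, 11.4 and 11.7 CPM in the OCT4 line. The EWS-OCT4 libraries had 1.97, 2.55 and 2.02 CPM. The order was thus OCT4 line, J1, EWS-OCT4 line, with no overlap between groups. Fos was 3.40-fold higher in the OCT4 line than in J1 (log2 fold change 1.76, SE 0.135, edgeR adjusted p = 2.86e-09). It was the single member lower in the EWS-OCT4 line than in the OCT4 line, by 5.29-fold (edgeR adjusted p = 1.47e-10). The EWS-OCT4 line was 1.56-fold below J1 (log2 fold change -0.64, SE 0.159, edgeR adjusted p = 0.00214), the smallest separation of neighbours in the order for this gene.

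Dusp4 and Dusp6, phosphatases that remove the activating phosphates from ERK in the nucleus and the cytoplasm respectively, shared 1 order of groups, EWS-OCT4 line, J1, OCT4 line. Dusp6 had 15.3, 13.3 and 14.3 CPM in J1. The OCT4 libraries had 9.33, 8.58 and 7.98 CPM and those with EWS-OCT4 34.8, 30.3 and 30.7. Dusp4 had 13.66, 12.53 and 12.97 CPM in J1. Its levels were 7.76, 7.32 and 9.70 CPM with OCT4 and 22.2, 20.5 and 21.1 with EWS-OCT4. No library of 1 group overlapped another group for either gene. In the EWS-OCT4 line Dusp6 was 2.23-fold and Dusp4 1.63-fold higher than in J1 (edgeR adjusted p = 9.51e-09 and 1.13e-05). In the OCT4 line Dusp6 was 1.66-fold lower (edgeR adjusted p = 5.89e-06) and Dusp4 1.58-fold lower (4.15e-05). Dusp4 lies on chromosome 8, whose 574 genes with at least 5 CPM had a median log2 fold change of -0.49 in the OCT4 line against J1, beside -0.66 for Dusp4, and of -0.41 in the EWS-OCT4 line, where Dusp4 was at 0.70. The part of this chromosome-wide shift in the Dusp4 values was not tested.

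The Sprouty and Spred inhibitors, which act on the pathway at the level of RAS and RAF, split by their level in J1. Spry4 had 112, 123 and 123 CPM in J1. Its levels with OCT4 were 22.9, 21.7 and 21.9 CPM, and with EWS-OCT4 70.0, 73.3 and 65.0. J1 was highest and the OCT4 line lowest, the same order as for Egr1. Spry4 was 5.38-fold lower in the OCT4 line than in J1 (log2 fold change -2.43, SE 0.0741, edgeR adjusted p = 1.79e-14) and 1.72-fold lower in the EWS-OCT4 line (-0.78, SE 0.0684, adjusted p = 2.99e-08). In the annotation Gm27369 and Gm27804 overlap Spry4 on the other strand, and whether counting used strand is not given in the sources used here.

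Spry2 and Spred1 instead were highest in the EWS-OCT4 line. Spry2 had 56.8, 60.7 and 56.9 CPM in J1. The OCT4 libraries had 42.0, 49.7 and 46.4 CPM and those with EWS-OCT4 84.4, 90.2 and 85.6. Spred1 had 57.8, 42.3 and 50.2 CPM in J1. Its levels were 38.7, 35.1 and 33.4 CPM with OCT4 and 82.5, 81.8 and 80.6 with EWS-OCT4. The groups did not overlap for either gene, although the lowest J1 library for Spred1 (42.3 CPM) was close to the highest OCT4 library (38.7 CPM). Against J1, Spry2 was 1.49-fold and Spred1 1.63-fold higher in the EWS-OCT4 line (edgeR adjusted p = 1.99e-06 and 4.01e-06). In the OCT4 line they were 1.26-fold and 1.40-fold lower than in J1 (edgeR adjusted p = 0.00054 and 0.000205), and the Spry2 change was the smallest that passed the test among the members.

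Within the PEA3 family of ETS transcription factors, Etv1 parted from Etv4 and Etv5. Etv1 had 12.93, 12.97 and 12.18 CPM in J1. Its levels with OCT4 were 41.1, 42.3 and 41.2 CPM, and with EWS-OCT4 72.5, 73.9 and 80.0. J1 was thus lowest, and both stable lines lay above it without overlap. Etv1 was 3.27-fold higher than J1 in the OCT4 line (log2 fold change 1.71, SE 0.076, edgeR adjusted p = 2.25e-12) and 5.94-fold higher in the EWS-OCT4 line (2.57, SE 0.0756, adjusted p = 2.67e-14). Of all tested genes, 1.67% rose further in the EWS-OCT4 line. Etv1 and Fos both lie on chromosome 12, whose 377 genes with at least 5 CPM had a median log2 fold change against J1 of -0.24 with OCT4 and -0.285 with EWS-OCT4. The chromosome median had the opposite sign to the Etv1 changes in both lines and to the Fos change in the OCT4 line. It had the same sign as the fall of Fos in the EWS-OCT4 line. The part of the chromosome-wide shift in the Etv1 and Fos values was not tested.

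Etv5 was the member with the most counts. Etv5 had 282, 284 and 283 CPM in J1. The OCT4 libraries had 142, 153 and 161 CPM and those with EWS-OCT4 281.36, 299.97 and 286.72. Etv4 had 76.2, 102 and 85.4 CPM in J1. Its levels were 60.0, 62.5 and 63.1 CPM with OCT4 and 81.8, 95.5 and 87.8 with EWS-OCT4. For both genes the J1 and EWS-OCT4 libraries overlapped and the OCT4 libraries lay below all of them. The log2 fold change of the EWS-OCT4 line against J1 was 0.01 for Etv4 (95% interval -0.18 to 0.20) and 0.03 for Etv5 (-0.10 to 0.17), with adjusted p = 0.932 and 0.67 by the edgeR quasi-likelihood test. These intervals cover 0.883- to 1.15-fold for Etv4 and 0.930- to 1.13-fold for Etv5. In the OCT4 line Etv5 was 1.86-fold and Etv4 1.42-fold lower than in J1 (edgeR adjusted p = 1.85e-09 and 9.16e-05). Etv4 lies on chromosome 11, whose 864 genes with at least 5 CPM had a median of -0.49 in the OCT4 line against J1, beside a log2 fold change of -0.50 for Etv4. In the EWS-OCT4 line that median was -0.46. The part of the chromosome-wide shift in the Etv4 values was not tested.

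**Figure D2:**
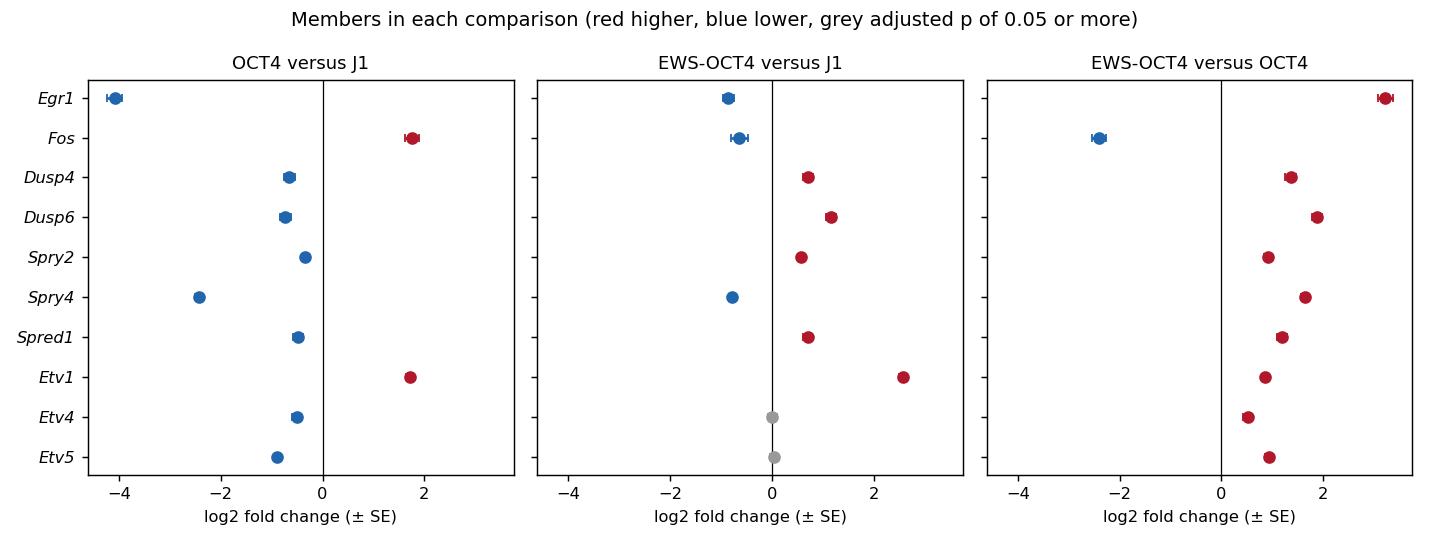
Log2 fold change (horizontal axis, ± SE) of the 10 members in 3 comparisons; red marks higher, blue lower and grey an adjusted p of 0.05 or more. Fos and Etv1 are the red points of the OCT4 line against J1, Etv4 and Etv5 the grey points of the EWS-OCT4 line against J1, and Fos the single blue point of the EWS-OCT4 line against the OCT4 line.

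The EWS-OCT4 line differed from the OCT4 line most for Egr1, which was 9.34-fold higher (log2 fold change 3.22, SE 0.151, edgeR adjusted p = 1.29e-11). Fos, the member that was lower, came next in size at 5.29-fold. Among the higher members Dusp6 followed Egr1 at 3.70-fold and Spry4 at 3.13-fold. Dusp4 was 2.57-fold and Spred1 2.28-fold higher. The remaining higher members changed by less than 2-fold, with Etv5 at 1.90-fold, Spry2 at 1.88-fold, Etv1 at 1.82-fold and Etv4 at 1.43-fold. The edgeR adjusted p of the 9 higher members ran from 8.1e-05 for Etv4 to 3.24e-12 for Spry4. Egr1 in the EWS-OCT4 line thus stood between its level in the OCT4 line and that in J1, as did Spry4.

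Ratios of counts within a library do not depend on how libraries are scaled. The pairs, which set Fos and Etv1 against other members, were chosen with earlier results of these data known. The ratios and their p-values therefore describe size and are no independent test of the pattern. In J1 the log2 ratio of Fos to Egr1 counts was -3.62, -3.93 and -3.89, and in the EWS-OCT4 line -3.71, -3.31 and -3.81. In the OCT4 line it was 2.24, 2.01 and 1.81, so that Fos had more counts than Egr1 there. The difference between the OCT4 line and J1 was 5.84 (log2), a 57.2-fold change of the ratio (two-sided exact permutation p = 0.1), and that between the EWS-OCT4 line and J1 was 0.20 (two-sided exact permutation p = 0.4). Fos and Egr1 were each lower in the EWS-OCT4 line than in J1, and the libraries of these groups overlapped in the ratio. With Dusp6 as the denominator the mean log2 ratio of Fos was -2.07 ± 0.22 in J1, 0.43 ± 0.113 with OCT4 and -3.86 ± 0.287 with EWS-OCT4 (SD, n = 3), with no overlap.

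Etv1 shifted against its family in both stable lines. The log2 ratio of Etv1 to Etv5 counts was -4.44, -4.45 and -4.53 in J1, -1.79, -1.85 and -1.97 with OCT4 and -1.96, -2.02 and -1.84 with EWS-OCT4. The stable lines overlapped, with a difference of -0.07 (two-sided exact permutation p = 0.5), and both were above J1, by 2.61 and 2.54. Against Etv4 the mean log2 ratio was -2.78 ± 0.208 in J1, -0.57 ± 0.0364 with OCT4 and -0.23 ± 0.126 with EWS-OCT4 (SD, n = 3). Against Egr1 it was -1.92 ± 0.272, 3.86 ± 0.22 and 1.49 ± 0.0323. Set against the mean log2 count of the 5 inhibitors (Dusp4, Dusp6, Spry2, Spry4 and Spred1), Etv1 stood at -1.52 ± 0.0789 in J1, 1.12 ± 0.0422 with OCT4 and 0.575 ± 0.112 with EWS-OCT4. On the same measure Fos stood at -3.42 ± 0.176, -0.72 ± 0.00396 and -4.53 ± 0.208, and Egr1 at 0.40 ± 0.322, -2.75 ± 0.221 and -0.92 ± 0.118. Across the 15 tests of 5 gene pairs in 3 comparisons, 13 had p = 0.1, the smallest that a two-sided exact permutation test of 3 against 3 libraries allows, and an adjusted p of 0.115, so none could pass 0.05.

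**Figure D3:**
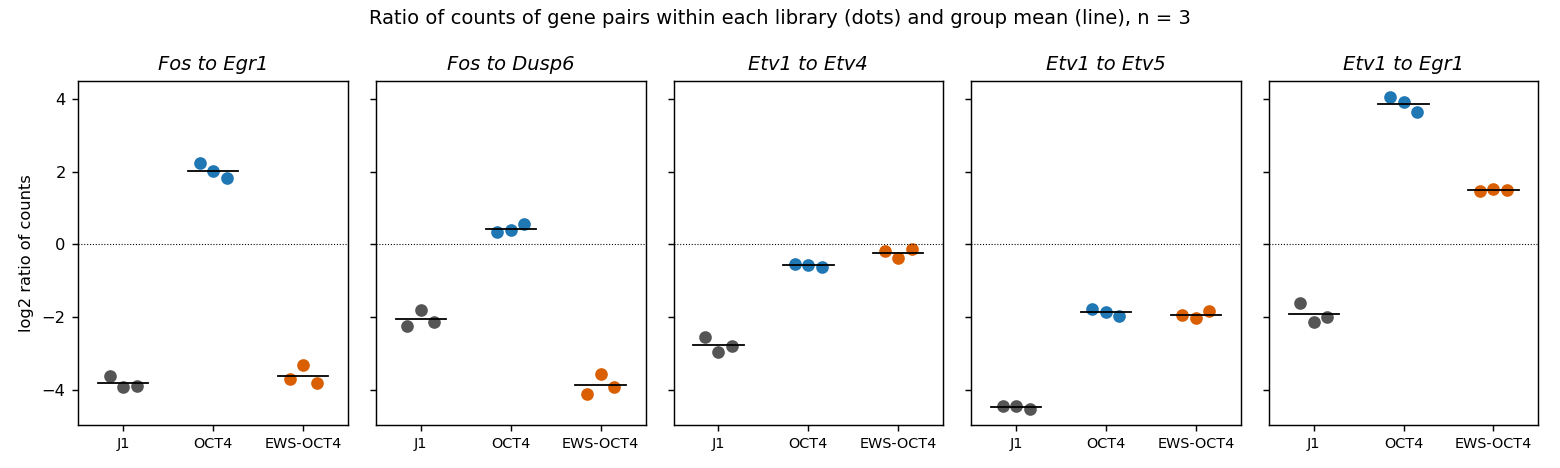
Log2 ratio of counts (vertical axis) of 5 gene pairs in each library, by group; dots are libraries and lines group means (n = 3). The Fos to Egr1 ratio of the OCT4 line lies above 0 and those of J1 and the EWS-OCT4 line below -3, while the Etv1 ratios to Etv4 and Etv5 of both stable lines lie above those of J1.

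The counts and ratios of different genes given above were not corrected for transcript length. For an order of levels, CPM was divided by the length of the longest annotated transcript (CPM per kilobase). Etv5 was the highest member in every group, at 71.1, 38.25 and 72.8 CPM per kilobase in the order J1, OCT4, EWS-OCT4. Fos was the lowest in J1 (1.61 ± 0.143) and the EWS-OCT4 line (1.04 ± 0.153; SD, n = 3), and Egr1 the lowest in the OCT4 line (0.637 ± 0.0978). Some neighbours in the order had means that differed by less than the sum of their SDs. In J1 these were Egr1 (10.8 ± 1.985) and Spred1 (8.33 ± 1.29), and Dusp6 (5.11 ± 0.361) and Dusp4 (4.76 ± 0.208). In the OCT4 line they were Etv1 (6.32 ± 0.103) and Spred1 (5.94 ± 0.448), Spred1 and Fos (5.49 ± 0.081), and Dusp6 (3.09 ± 0.241) and Dusp4 (3.015 ± 0.4635). With EWS-OCT4 they were Spry4 (14.6 ± 0.886) and Spred1 (13.6 ± 0.159), and Etv1 (11.5 ± 0.611) and Dusp6 (11.4 ± 0.887).

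Mapk3, which encodes the kinase ERK1, had 53.8 ± 4.09 CPM in J1, 49.1 ± 4.88 with OCT4 and 50.4 ± 5.34 with EWS-OCT4 (SD, n = 3), and was not called in any comparison (edgeR adjusted p from 0.207 to 0.73). This gene was chosen after its values were seen. Of 33 tested adaptors and kinases of the cascade, 18 were higher and 7 lower in the OCT4 line than in J1, and 6 rose and 12 fell from the OCT4 line to the EWS-OCT4 line. Of all tested genes, 34.3% were higher and 32.7% lower in the OCT4 line than in J1. From the OCT4 line to the EWS-OCT4 line 31.9% rose and 34.6% fell, and from J1 to the EWS-OCT4 line 30.3% rose and 31.6% fell. These shares apply to every list below, and counts near them set no list apart. The adaptor gene Gab2 was 17.7-fold higher in the OCT4 line (8.34 ± 0.662 CPM) than in J1, where its level was very low (0.473 ± 0.162 CPM). The RAS relative Mras was 3.67-fold higher in the EWS-OCT4 line than in J1. Between J1 and the EWS-OCT4 line 16 of the 33 adaptors and kinases rose and 9 fell. The list's median log2 fold change against J1 was 0.245 with OCT4 and 0.172 with EWS-OCT4, beside 0.01 and 0.00262 over all tested genes.

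Among 16 tested ligands, 3 were higher and 6 lower in the OCT4 line than in J1 (34.3% and 32.7% of all tested genes). Fgf17, an FGF8 subfamily ligand, stood at 9.84 ± 0.975 CPM in J1, 0.770 ± 0.116 with OCT4 and 7.83 ± 1.2 with EWS-OCT4 (SD, n = 3). Igf2, an insulin-like growth factor, was at 0.881 CPM in J1, 532.5 with OCT4 and 93.9 with EWS-OCT4. In the EWS-OCT4 line against the OCT4 line 5 ligands were higher and 5 lower, with Pdgfc, a platelet-derived growth factor, 13.8-fold higher, and against J1 4 were higher and 6 lower. Of 15 tested receptors, 7 were higher and 1 lower in the OCT4 line than in J1 (34.3% and 32.7% of all tested genes). From the OCT4 line to the EWS-OCT4 line 3 receptors rose and 8 fell (31.9% and 34.6% of all tested genes). From J1 to the EWS-OCT4 line 5 receptors rose and 9 fell, with a median log2 fold change of -0.44. The FGF receptor gene Fgfr2 was 6.16-fold higher in the OCT4 line than in J1 and 3.67-fold lower in the EWS-OCT4 line than in the OCT4 line.

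All 5 inhibitor members were lower in the OCT4 line than in J1, while the other genes listed as pathway inhibitors went both ways. Members and list were chosen with earlier results of these data known, so this contrast may follow from the choice. Whether each listed gene inhibits ERK in these cells was not checked. Of 29 listed genes tested, 13 were higher and 8 lower in the OCT4 line than in J1 (34.3% and 32.7% of all tested genes). From the OCT4 line to the EWS-OCT4 line 7 of them rose and 14 fell. Their median log2 fold changes were 0.08 and -0.305 in these comparisons. From J1 to the EWS-OCT4 line 7 of them rose and 9 fell. Dusp9, another ERK phosphatase, stood at 71.75 ± 5.92 CPM in J1, 445 ± 21.5 with OCT4 and 60.3 ± 4.09 with EWS-OCT4 (SD, n = 3). It is X-linked, and 375 X-linked genes with at least 5 CPM had a median log2 fold change of 0.63 in the OCT4 line against J1 and -0.45 in the EWS-OCT4 line against the OCT4 line, beside 2.63 and -2.88 for Dusp9. The part of this X-linked shift in the Dusp9 values was not tested. Spred2, a relative of Spred1, was 1.94-fold lower in the OCT4 line than in J1 (edgeR adjusted p = 2.65e-09). Flrt3 was 3.34-fold lower there and 3.79-fold higher in the EWS-OCT4 line than in the OCT4 line. It encodes an FGF receptor-associated membrane protein, and an inhibitory effect on ERK was not checked for it.

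In the OCT4 line Fos had the direction of most of the other immediate early genes tested, and Egr1 the opposite one. Of 33 tested, 23 were higher and 3 lower in the OCT4 line than in J1 (34.3% and 32.7% of all tested genes). The median log2 fold change of the list was 0.73, beside 0.01 for all tested genes. In the EWS-OCT4 line against the OCT4 line 7 were higher and 22 lower, with a median of -0.465 (all genes, -0.04), and against J1 15 were higher and 9 lower. Gadd45b, a stress and growth arrest gene, was 6.06-fold higher in the OCT4 line than in J1 and 3.89-fold lower in the EWS-OCT4 line than in the OCT4 line. Myc, a growth-promoting transcription factor, stood at 18.1 CPM in J1, 6.55 with OCT4 and 45.1 with EWS-OCT4, and Ier2 was 1.72-fold lower in the OCT4 line than in J1. The third gene lower there was Fosl1, a FOS relative named after its values were seen, at 0.839 CPM against 3.68 in J1. Among 19 AP-1 and related factors, a list that shares members with the immediate early list, 8 were higher and 3 lower in the OCT4 line than in J1 (all tested genes, 34.3% and 32.7%). From the OCT4 line to the EWS-OCT4 line 7 of these rose and 9 fell, and from J1 6 rose and 6 fell. Jun, the partner of FOS, stood at 5.10 CPM in J1, 22.5 with OCT4 and 6.97 with EWS-OCT4, and Jdp2, a repressor in the same family, at 6.68, 25.8 and 4.85.

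Of 21 other ETS factors, CIC and its partners, 8 were higher and 6 lower in the OCT4 line than in J1, where 34.3% and 32.7% of all tested genes were. From J1 to the EWS-OCT4 line 7 of these rose and 7 fell, beside 30.3% and 31.6% of all tested genes. From the OCT4 line to the EWS-OCT4 line 6 rose and 11 fell. Elf4 was 5.19-fold higher and Elf1 2.86-fold lower in the OCT4 line than in J1. Atxn1l, a partner of CIC, was 2.70-fold lower in the OCT4 line and 2.72-fold lower in the EWS-OCT4 line. Cic itself, named after its values were seen because of the octamer in the Fos, Dusp6 and Spry2 windows, had 141 ± 14.6 CPM in J1, 217 ± 19.3 with OCT4 and 157 ± 4.65 with EWS-OCT4 (SD, n = 3). Of 19 cytoskeletal targets of serum response factor, the factor that also acts on Egr1 and Fos, 8 were higher and 9 lower in the OCT4 line than in J1. In the EWS-OCT4 line 11 rose and 4 fell against J1, and the actin-binding gene Tagln was 16.6-fold higher. Against the OCT4 line 7 were higher and 6 lower.

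**Figure D4:**
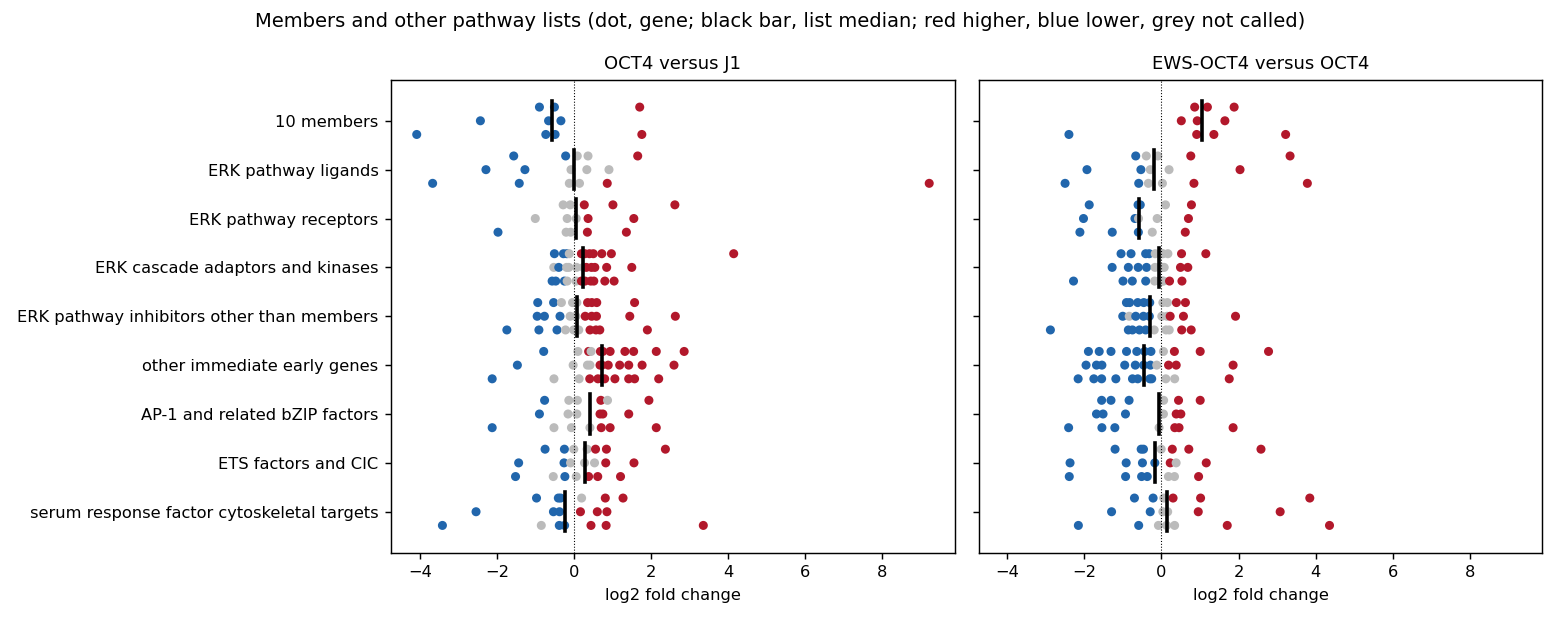
Log2 fold change (horizontal axis) of the 10 members and of the tested genes of 8 other lists, for the OCT4 line against J1 and the EWS-OCT4 line against the OCT4 line; dots are genes (red higher, blue lower, grey not called, spread vertically only to separate them) and black bars list medians. The members' median lies at -0.58 and 1.06, and that of the other immediate early genes at 0.73 and -0.465.

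Some genes outside the list followed a member closely over the 9 libraries, by the root mean square difference of log2 CPM after centring each gene on its own mean, among 10305 genes with at least 5 CPM. Nearest to Egr1 were Ina (0.212), Crmp1 (0.303) and Fgf17 (0.317). Ina stood at 41.9 ± 2.97 CPM in J1, 2.39 ± 0.569 with OCT4 and 19.7 ± 1.86 with EWS-OCT4 (SD, n = 3). Nearest to Fos were Ap3m2 (0.0822), Sec14l5 (0.102) and Caskin1 (0.115), and nearest to Dusp6 were Lama1 (0.0722), Smim10l1 (0.0871) and Zfp979 (0.109). Lama1, a laminin subunit, stood at 129 ± 2.33, 75.7 ± 4.2 and 294 ± 4.5 CPM in the same order of groups. Nearest to Etv1 were Folr1 (0.111), Pdgfa (0.121) and Limch1 (0.125), and Pdgfa, a platelet-derived growth factor subunit, stood at 14.7 ± 2.45, 46.4 ± 2.79 and 83.2 ± 1.66 CPM. Among the members themselves, Dusp4 and Spred1 were the closest pair (0.181), followed by Spred1 with Spry2 (0.201) and Etv4 with Etv5 (0.22). For Fos the closest member was Etv4 (1.24), for Etv1 it was Spry2 (0.953) and for Egr1 it was Spry4 (0.769).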

How the data were processed

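The deposited values were raw counts, whole numbers per gene symbol and not normalized, for 9 total RNA libraries made with the CORALL V2 kit, per the labels' protocols. fastp, STAR, Salmon, GATK and GRCm39 are named in the submitters' processing notes. Their versions, the annotation, the use of strand and the handling of molecular identifiers were not given in the sources used here.

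Members, lists and ratio pairs were chosen with earlier results of these data known. Genes were kept by filterByExpr (minimum count 10, minimum total 15) and fitted in 1 model of 3 groups in edgeR 4.0.16 (R 4.3.3; TMM factors 0.958 to 1.033, robust glmQLFit, glmQLFTest, Benjamini-Hochberg over all tested genes). The SE was taken as the absolute log2 fold change over the square root of the F statistic. Ratios used counts plus 0.5. Named list genes were up to 2 per direction with the largest called change and at least 5 CPM. Mapk3, Cic and Fosl1 were named outside that rule. Transcript lengths and chromosomes came from GENCODE M21, which is on another build. Replicates differed beyond sampling noise (chi-square per degree of freedom 3.36 to 32.4). The fit was first tested on simulated counts for EWS-OCT4 versus OCT4, with 15973 of 16168 tested genes left unchanged. It called 14.6% of 1.25-fold, 67.3% of 1.5-fold, 81.2% of 2-fold and 98% of 4-fold changes, and 10 unchanged genes. Most genes were called in the real data, so the simulation does not show how the fit behaves under such widespread change. Alternatives were other scalings, filters and tests (DESeq2 1.42.0, limma 3.58.1), fewer libraries and a replicate block.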

Additional observations from a re-analysis of the deposited data

How the results depend on the processing

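All 30 member fold changes kept their side of the threshold and, where called, their direction under 18 alternatives each (540 values), and the number of members called stayed at 10, 8 and 10. The alternatives comprised 2 other scalings (RLE, upper quartile), 2 other low-count rules (no filter, or at least 5 CPM in 3 libraries), DESeq2, limma-voom, a fit restricted to the 6 libraries of a comparison, a block for the replicate number, totals without mitochondrial genes and Gm26917, and the omission of each of the 9 libraries. The called member closest to the threshold was Fos in the EWS-OCT4 line against J1, with adjusted p between 0.00119 and 0.0134 and a log2 fold change between -0.76 and -0.56 over these alternatives. The uncalled values against J1 ranged from -0.08 to 0.13 for Etv4 and from -0.01 to 0.07 for Etv5. Genes called numbered 8163 to 11815 for EWS-OCT4 versus OCT4, 7499 to 10867 for EWS-OCT4 versus J1 and 8235 to 12052 for OCT4 versus J1, with the fewest under the 5 CPM minimum, which tests fewer genes. Depth limits the precision for Fos, with as few as 41 counts in a library, and for Egr1, with as few as 53.

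With the replicate number as a block, 11246, 10534 and 11356 genes were called in that order, and no member's call changed. The numbers were not taken as pairs because nothing in the labels says that a number marks a shared day or culture. Deviations of same-numbered libraries from their group means correlated by -3.17e-05 to 0.0737 over 9 pairs, and those of differently numbered libraries by -0.0644 to 0.0334. A library correlated best with its own number in 13 of 18 checks, each among 3 candidates, which is a hint of shared numbers from the data and not from the design. All 120 alternative values of the ratios kept their sign, but most of them could not have changed it. The difference with a replicate block equals the main one by construction. Where the libraries of the groups did not overlap, leaving out a library cannot reverse the sign.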
